A study of Drosophila melanogaster with 12 samples.

Results

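The cytosolic glutathione S-transferases (GSTs) of Drosophila melanogaster were followed through regeneration of the larval wing imaginal disc, the epithelial sac from which the adult wing and notum form. Members were the genes whose FlyBase symbol begins with Gst and the letter of the class delta, epsilon, omega, sigma, theta or zeta. They numbered 35 of the 17158 genes in the deposited table, with 11 delta, 14 epsilon, 3 omega, 1 sigma, 4 theta and 2 zeta genes. Poly(A) RNA came from discs of larvae in the third instar, either regenerating after apoptosis had been induced or undamaged and kept under the same conditions. Both were collected at 0 h, 15 h and 25 h after induction, with 2 libraries of 40 pooled discs for each of the 6 groups. Per the labels the damaged and undamaged discs differ in genotype, but no allele, driver or strain is named.

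GSTs join the tripeptide glutathione to electrophilic compounds, among them insecticides and the aldehydes left by lipid peroxidation, and some also reduce peroxides. The delta and epsilon classes are large in insects, where many members lie in tandem arrays. In flies several GST genes, GstD1 above all, are targets of the oxidative stress factor CncC, which Keap1 holds in check, and a GstD reporter is a common readout of oxidative stress in discs. Other classes have roles of their own in metabolism, such as the zeta class in the breakdown of tyrosine.

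Each value is the FPKM that the authors deposited for a group, fragments normalised for transcript length and sequencing depth, merged over the replicates. FPKM is already divided by length, so levels of different genes can be set side by side. No group has separate replicate values, so no spread and no test could be computed, no difference has a replicate check, and neighbouring genes in the order of levels cannot be said to differ. Read depth is unknown. A gene is called higher or lower where (FPKM + 1) differed by a log2 ratio of 1 or more, provided that 1 or both groups reached 1 FPKM. This rule of size is no test, and the scale understates the change of weakly expressed genes.

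The groups differed in ways that touch every ratio. The median ratio of all genes measured, regenerating over control, was itself 0.47 at 0 h, 0.35 at 15 h and 0.10 at 25 h on the log2 scale, and ratios are therefore also given after median-of-ratios scaling of the groups. Weak genes were often listed at 0 in control discs at 25 h. Of the genes whose median elsewhere lay from 1 to 2 FPKM, 46.8% were at 0 there, and in the remaining 5 groups the corresponding shares were 3.12% to 11.2%. A listing at 0 is not read as absence. The control group at 0 h has fewer decimals than the rest, so it may hold rounded means or a single library. All 10 wing disc marker genes examined, vg, nub and ap among them, were above 0 in every group. Markers of fat body, a tissue rich in detoxifying enzymes, summed to 261, 8.13 and 56.5 FPKM in control discs in order of time and to 408, 150 and 722 FPKM in regenerating discs, with Yp1 at 0 in every group. They were higher by the rule for 4 of 9, 7 of 8 and 8 of 8 genes measured at 0 h, 15 h and 25 h, where 7.47%, 5.95% and 9.11% of all genes measured were higher. After scaling 2 were higher and 1, Fbp2, lower at 0 h, and the counts at 15 h and 25 h were again 7 and 8. Over all genes 2.34%, 1.64% and 8.46% were then higher, and 5.46% lower at 0 h. Hemocyte markers summed to between 19.5 and 27.1 FPKM per group, with crq alone at 9.37 to 17.0 FPKM. Of these markers He was lower at 0 h, at 3.18 and 0 FPKM, as 1 of 6 measured, against 3.04% of all genes. At 25 h He was higher, at 0 and 1.745 FPKM, as 1 of 4 measured, against 9.11%. At 15 h 0 of 5 were higher or lower. In bulk discs, fewer cells of a type and less RNA per cell cannot be told apart.

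The family was dominated by a single gene. GstD1 (FBgn0001149, chromosome 3R, 12367817 to 12369268, minus strand, build dm6) stood at 1291, 1221 and 1440.2 FPKM in control discs at 0 h, 15 h and 25 h. In regenerating discs it stood at 2959.8, 3250.25 and 3099 FPKM. Every regenerating value lay above every control value, and within each kind of disc the 3 times lay close together. The ratios of regenerating over control FPKM were 2.29, 2.66 and 2.15. On the scale of the rule GstD1 was higher at all 3 times, with log2 ratios of 1.20, 1.41 and 1.10. After median-of-ratios scaling the ratios were 0.66, 1.02 and 1.06, so that the call at 0 h was lost while the direction held. GstD1 ranked 131st, 128th and 117th among all genes in control discs and 86th, 81st and 95th in regenerating discs.

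The fat body markers, like GstD1, summed to more in regenerating than in control discs at each of the 3 times, at 408 against 261 FPKM, 150 against 8.13 FPKM and 722 against 56.5 FPKM. Their part in the ratios of GstD1 and of the other members was not tested.

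Summed over the 35 genes, FPKM was 2733, 3128 and 3478 in control discs and 5168, 5711 and 5412 in regenerating discs in order of time. This was between 0.182% and 0.262% of the FPKM of all genes in control discs and between 0.376% and 0.458% in regenerating discs. The family sum was 1.89, 1.83 and 1.56 times as high in regenerating as in control discs. After scaling it was 1.30, 1.39 and 1.51 times as high, so the order over time was reversed. Most of the difference lay in GstD1, which made up 68.6% of it at 0 h, 78.6% at 15 h and 85.7% at 25 h. After scaling these shares were 90.9%, 102.6% and 88.6%, since at 15 h the other members then summed to less in regenerating discs. Without GstD1 the sums were 1.53, 1.29 and 1.14 times as high, and after scaling 1.05, 0.98 and 1.10 times. GstD1 alone accounted for 39.0% to 47.2% of the family sum in control discs and for 56.9% to 57.3% in regenerating discs.

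**Figure D1:**
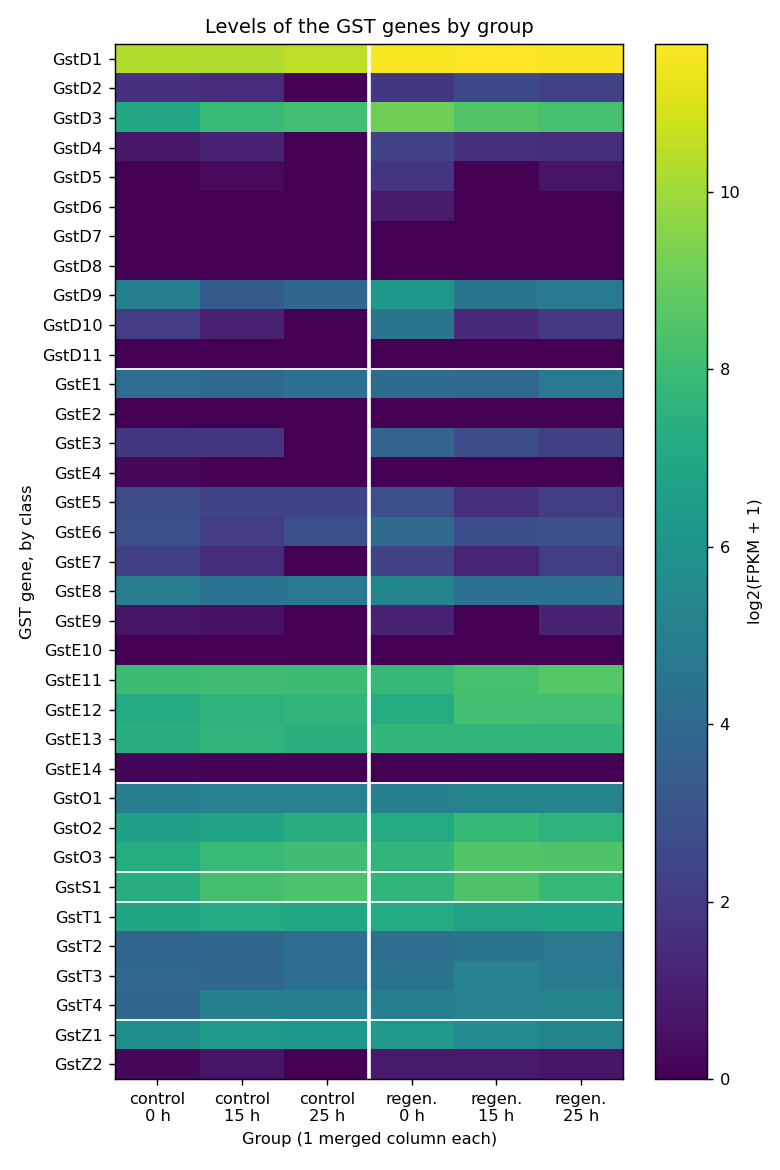
Level of each of the 35 GST genes as log2(FPKM + 1), in colour, with a row per gene ordered by class (white lines) and a column per group, control discs on the left and regenerating discs on the right. GstD1 is the brightest row throughout, and GstD7, GstD8, GstD11, GstE2 and GstE10 are at 0 in all 6 groups.

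The genes spanned several ranges of level. In every group 9 members were at or above 100 FPKM. These were, in order of mean level, GstD1, GstD3, GstE11, GstO3, GstS1, GstE12, GstE13, GstO2 and GstT1. A second range held GstZ1, GstO1, GstD9, GstE8, GstT4, GstT3, GstE1 and GstT2, between 9.41 and 79.0 FPKM in every group. Of the weaker members, GstE6, GstE3, GstE5, GstD10, GstE7, GstD2, GstD4, GstE9 and GstD5 reached 1 FPKM in at least 1 group but never more than 21.7 FPKM. GstD6, GstE4, GstE14 and GstZ2 stayed below 1 FPKM wherever they were listed above 0, and 5 more members were at 0 throughout. GstE14, known as noppera-bo, acts in the prothoracic gland in making ecdysteroid hormone, and in these discs it was listed at 0.14 FPKM in control discs at 0 h and at 0 in the other 5 groups.

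At 0 h, the time chosen by the study to catch the earliest response, most of the members that were higher belonged to the delta class. Of the 35 members 26 were measured, 9 were higher by the rule and 0 were lower. Over all 8202 genes measured 7.47% were higher and 3.04% lower. Of the 9, 6 were delta genes, GstD1, GstD3, GstD4, GstD5, GstD9 and GstD10, out of 7 delta genes measured. The others were GstE3, GstE6 and GstT4. The median log2 ratio of the measured members was 0.47, the same as that of all genes. Of the measured members 3, GstD4, GstD5 and GstE9, reached 1 FPKM only in regenerating discs, so their ratios could only be above 0, and GstD4 and GstD5 are among the 6 delta genes counted as higher.

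GstD10 had the largest ratio of the family at 0 h. It stood at 3.39, 1.08 and 0 FPKM in control discs in order of time, and at 21.7, 1.70 and 2.93 FPKM in regenerating discs. Regenerating discs at 0 h were far above the other 5 groups, which lay within 0 to 3.39 FPKM. The log2 ratio at 0 h was 2.37, and 1.93 after scaling. From 0 h to 15 h GstD10 was lower by the rule in both kinds of disc, with log2 ratios of -1.07 in control and -3.08 in regenerating discs.

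GstD3, the second most abundant member, showed the same early excess at a high level. Its values were 130.1, 234 and 277 FPKM in control discs and 558, 365 and 305 FPKM in regenerating discs. The control values went up with time while the regenerating values went down, and at 25 h the groups were close. The log2 ratios were 2.09, 0.64 and 0.14, and after scaling 1.55, 0.25 and 0.09.

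GstE3 (FBgn0063497, chromosome 2R, 18400713 to 18401467, plus strand) was the epsilon gene with the largest ratio at 0 h. It stood at 2.72, 2.62 and 0 FPKM in control discs and at 12.3, 5.87 and 3.65 FPKM in regenerating discs. As deposited, every regenerating value lay above every control value, an order across times that scaling did not keep. The log2 ratio was 1.84 at 0 h, 1.42 after scaling, and 0.92 at 15 h. The ratio of 2.22 at 25 h rests on the control value listed at 0.

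GstD9 was high at 0 h in both kinds of disc. It stood at 32.3, 9.41 and 13.9 FPKM in control discs and at 73.2, 23.0 and 26.4 FPKM in regenerating discs. The log2 ratios of 1.16, 1.21 and 0.87 were close to one another, since the gene was lower at 15 h than at 0 h in both. After scaling they were 0.63, 0.84 and 0.83, below the rule at each time.

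GstE6 stood at 6.31, 3.32 and 6.12 FPKM in control discs and at 15.9, 6.005 and 6.42 FPKM in regenerating discs. It was higher at 0 h with a log2 ratio of 1.20, or 0.72 after scaling, and at 25 h the ratio was 0.06. GstD4 stood at 0.66, 1.14 and 0 FPKM in control discs and at 3.92, 2.10 and 1.90 FPKM in regenerating discs, with a log2 ratio of 1.57 at 0 h. GstD5, chosen here for its value, had a control value of 0 and a regenerating value of 2.42 FPKM at 0 h, and was back at 0 in regenerating discs by 15 h. Weak genes such as GstD4 and GstD5 may rest on few fragments, since the genes are 725 and 840 exonic bases long and depth is unknown.

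After scaling, 5 of the 9 members remained higher at 0 h, GstD3, GstD4, GstD5, GstD10 and GstE3, where 2.34% of all genes measured were higher. All 5 belong to the delta and epsilon classes, which hold 7 and 10 of the 26 members measured as deposited. Those lost were GstD1, GstD9, GstE6 and GstT4. Leaving out genes listed at 0 in either group removed GstD5 from the 9 and left 8 higher, against 6.86% of all such genes. No member was lower after scaling, where 5.46% of all genes were.

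**Figure D2:**
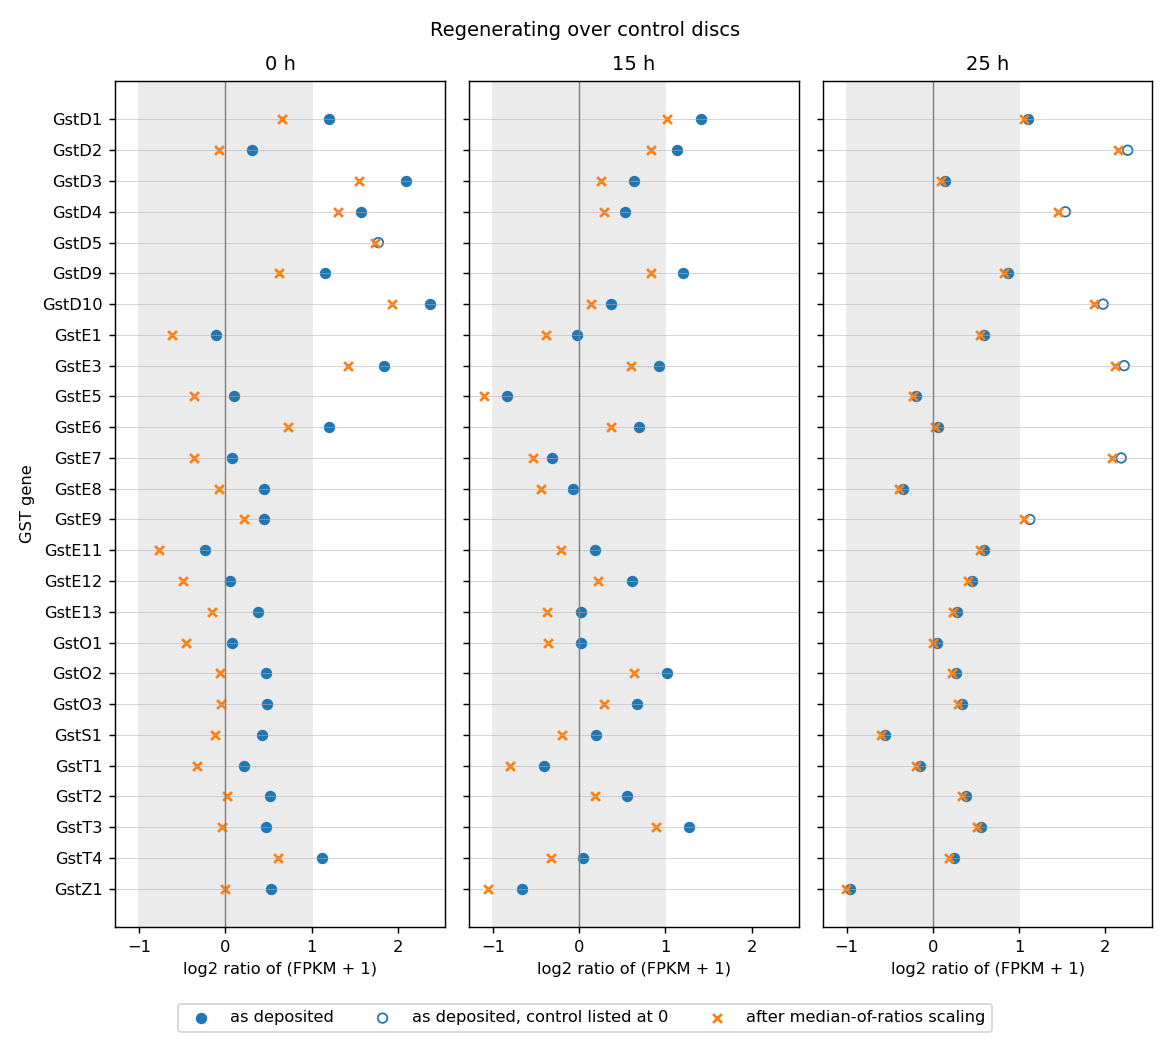
Log2 ratio of (FPKM + 1), regenerating over control, at 0 h, 15 h and 25 h for the 26 GST genes that reach 1 FPKM in any group, with a point for each measured ratio as deposited, an open point where the control is listed at 0, and a cross for the ratio after scaling. The grey band marks ratios inside the rule of size, and at 25 h GstD1 is the filled point to the right of it at 1.10, while 6 open points rest on controls listed at 0.

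At 15 h, 24 members were measured, 5 were higher and 0 lower, against 5.95% and 2.2% of 8095 genes measured. The 5 were GstD1, GstD2, GstD9, GstO2 and GstT3, each with both values above 0. The median log2 ratio of the members was 0.45 and that of all genes 0.35. GstD3, GstD10, GstE3 and GstE6, all higher at 0 h, lay inside the rule at 15 h, with log2 ratios of 0.64, 0.37, 0.92 and 0.70. Whether the ratio at 15 h differed from that at 0 h was not tested.

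GstO2, of the omega class, whose members reduce dehydroascorbate and mixed disulfides, stood at 100.5, 111.7 and 154 FPKM in control discs. In regenerating discs it stood at 139.5, 228 and 187 FPKM. Its highest value was at 15 h, and its log2 ratios were 0.47, 1.02 and 0.27. After scaling these were -0.07, 0.63 and 0.22, so the direction at 0 h turned. GstT3, a theta gene on the X chromosome, stood at 15.0, 14.0 and 18.3 FPKM in control discs and at 21.2, 35.2 and 27.4 FPKM in regenerating discs. As deposited, all 3 regenerating values lay above the control values, with log2 ratios of 0.47, 1.27 and 0.56. After scaling the ratios of GstT3 were -0.04, 0.89 and 0.51, so here too the direction at 0 h turned. GstD2 stood at 1.95, 1.75 and 0 FPKM in control discs and at 2.65, 5.03 and 3.79 FPKM in regenerating discs, with a log2 ratio of 1.13 at 15 h. After scaling GstD1 was the only member higher at 15 h, at 1.02, where 1.64% of all genes were higher. Then 2 members were lower, GstE5 at -1.11 and GstZ1 at -1.05, where 4.01% of all genes were.

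At 25 h, 25 members were measured, 7 were higher and 0 lower, against 9.11% and 3.2% of 8149 genes measured. GstD1 was the one with both values above 0. The other 6, GstD2, GstD4, GstD10, GstE3, GstE7 and GstE9, were listed at 0 in control discs and stood between 1.18 and 3.79 FPKM in regenerating discs. These 6 were measured only through the regenerating group, and this control group lists weak genes at 0 more often than any other, as given above. After scaling the same 7 were higher, against 8.46% of all genes, and GstZ1 was lower at -1.01, against 3.53%. Among genes above 0 in both groups, GstD1 was the only 1 of 19 members higher, where 1.63% of all genes were. The medians of members and all genes were 0.39 and 0.10, and 0.27 and 0.07 among genes above 0 in both groups. This control group listed 16 members at 0, and the other groups listed 7 to 10.

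Single genes peaked at different times. Of the 26 members that reached 1 FPKM, each had its highest value in a regenerating group, 12 of them at 0 h, 7 at 15 h and 7 at 25 h. Over all 8619 genes of that level 78.5% were highest in a regenerating group, 17.6% at 0 h, 37.7% at 15 h and 23.2% at 25 h. Of the 26, GstD5 and GstE9 reached 1 FPKM only in regenerating groups, so as deposited they could only be highest there. After scaling 16 of the 26 were highest in a regenerating group, against 55.3% of all genes. Of the 26, 9 were then highest in regenerating discs at 0 h, against 15.4% of all genes. Those 9 were GstD1, GstD3, GstD4, GstD5, GstD9, GstD10, GstE3, GstE6 and GstE9. Another 7, GstE5, GstE7, GstE8, GstE11, GstE13, GstO1 and GstT1, were highest in control discs at 0 h, against 20.8% of all genes, and GstS1, GstT4 and GstZ1 in control discs at 15 h.

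Within regenerating discs from 0 h to 15 h, 0 of 26 measured members were higher and 7 lower, against 3.26% and 3.68% of 8199 genes. The 7 were GstD5, GstD9, GstD10, GstE5, GstE6, GstE7 and GstE9. Of these GstD5 and GstE9 reached 1 FPKM only at 0 h, so their ratios could only be below 0. The median log2 ratio of the members was -0.26 and that of all genes 0.22. After scaling 0 were higher and 9 lower, against 1.96% and 4.75% of all genes, with GstE3 and GstE8 added to the 7. Among genes above 0 in both groups 5 were lower, against 2.03%. From 15 h to 25 h 1 member, GstE9, was higher and 0 were lower, against 2.86% and 2.59% of 8170 genes, and GstE9 was listed at 0 at 15 h. Scaling added GstE7 to the higher members, against 3.1% of all genes higher and 1.61% lower. In control discs from 0 h to 15 h GstT4 was higher and GstD9 and GstD10 lower, against 5.02% and 2.09% of 8072 genes. Scaling turned this to 0 higher and 4 lower, against 1.63% and 4.46%, with GstE6 and GstE7 beside GstD9 and GstD10. From 15 h to 25 h in control discs 0 members were higher and 5 lower, against 1.01% and 5.3% of 7944 genes. Those 5, GstD2, GstD4, GstD10, GstE3 and GstE7, were all listed at 0 at 25 h, so their ratios could only be below 0. Scaling kept them, against 0.853% of all genes higher and 5.93% lower. These comparisons share groups with those of regenerating and control discs and are not independent of them.

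**Figure D3:**
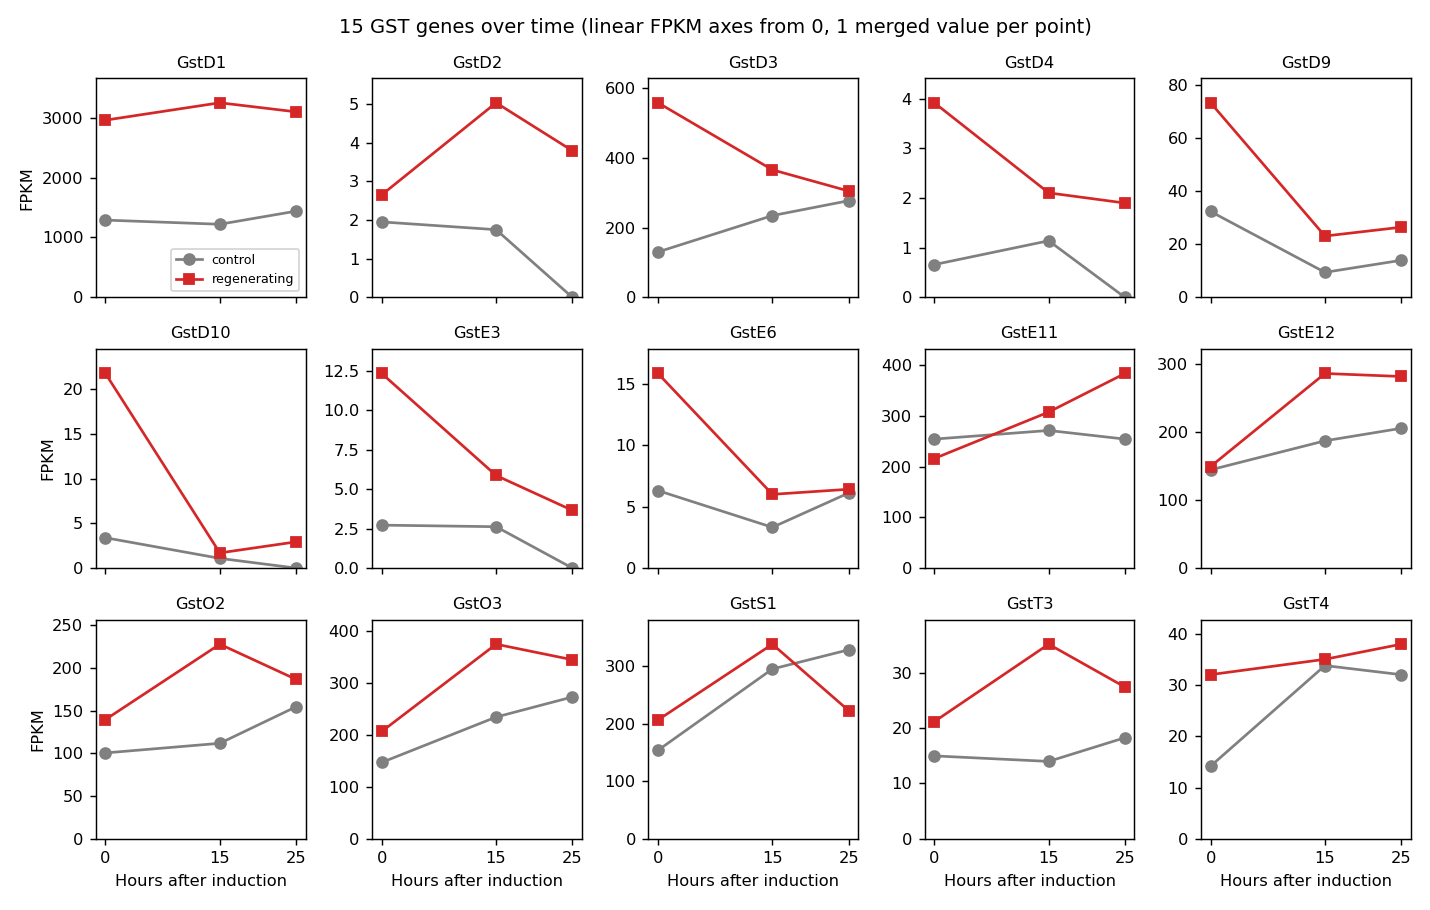
FPKM of 15 GST genes at 0 h, 15 h and 25 h on linear axes from 0, 1 merged value per point, control discs in grey and regenerating discs in red. GstD3, GstD4, GstD9, GstD10, GstE3 and GstE6 are highest in regenerating discs at 0 h, while GstD1 keeps its distance from the control at all 3 times.

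Several well expressed members lay inside the rule at every time. GstE11 stood at 254, 271 and 254 FPKM in control discs and at 216, 307 and 383 FPKM in regenerating discs. It was below the control at 0 h and above it at 25 h, with log2 ratios of -0.23, 0.18 and 0.59. After scaling these were -0.77, -0.21 and 0.54, so the direction at 15 h turned. GstE12 stood at 144, 187 and 205 FPKM in control and at 149, 286 and 281 FPKM in regenerating discs, inside the rule at each time. GstE13 lay between 161 and 210.4 FPKM and GstT1 between 103 and 138 FPKM over the 6 groups. GstO1 lay between 31.2 and 36.2 FPKM.

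GstO3 stood at 147, 235 and 273 FPKM in control discs and at 207, 375 and 345 FPKM in regenerating discs. Its regenerating values lay above the control of the same time at each time, inside the rule, with log2 ratios of 0.49, 0.67 and 0.34. After scaling these were -0.05, 0.28 and 0.29, so the direction at 0 h turned. GstS1 is the only sigma-class GST of the fly and can conjugate 4-hydroxynonenal, a product of lipid peroxidation. It stood at 154, 295 and 329 FPKM in control discs and at 207, 338 and 223 FPKM in regenerating discs. Regenerating discs were thus above control discs at 0 h and 15 h and below them at 25 h, with log2 ratios of 0.42, 0.20 and -0.56. After scaling these were -0.12, -0.20 and -0.61, so the direction at 0 h and 15 h turned.

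GstT4, on the X chromosome, stood at 14.2, 33.8 and 32.1 FPKM in control discs and at 32.1, 35.1 and 38.005 FPKM in regenerating discs. The control value at 0 h lay apart from the other 5, and the log2 ratio there was 1.12, or 0.61 after scaling. GstT2 stood between 12.3 and 23.7 FPKM, with ratios of 0.52, 0.56 and 0.39.

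Neighbours in the gene arrays stood at very different levels. The 11 delta genes lie in 20.8 kb of chromosome 3R, from 12364776 to 12385624, with 1 other protein-coding gene, CG10035. GstD10, GstD9 and GstD1 are on the minus strand at 1 end, followed on the plus strand by GstD2 to GstD8 and GstD11. Within this array levels at 0 h in regenerating discs ran from 2959.8 FPKM for GstD1 and 558 FPKM for GstD3 to 0.78 FPKM for GstD6 and 0 for GstD7, GstD8 and GstD11. GstD3 lies between GstD2 and GstD4, which stood at 2.65 and 3.92 FPKM. The 6 delta genes higher at 0 h lie on both strands.

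Of the 14 epsilon genes, GstE1 to GstE10 lie in 13.2 kb of chromosome 2R, from 18396638 to 18409835. Their mean FPKM over the 6 groups ran from 0 to 25.7, with a median of 3.32. The 4 epsilon genes elsewhere on 2R were GstE11, 93.8 kb away, GstE12, GstE13 and GstE14. The first 3 of these stood at means of 281, 209 and 192 FPKM, above every member of the cluster, and GstE14 was near 0. Both epsilon genes higher at 0 h, GstE3 and GstE6, are in the cluster, where their neighbours GstE5 and GstE7 had log2 ratios of 0.10 and 0.07 and GstE2 and GstE4 were listed at 0 or below 1 FPKM.

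**Figure D4:**
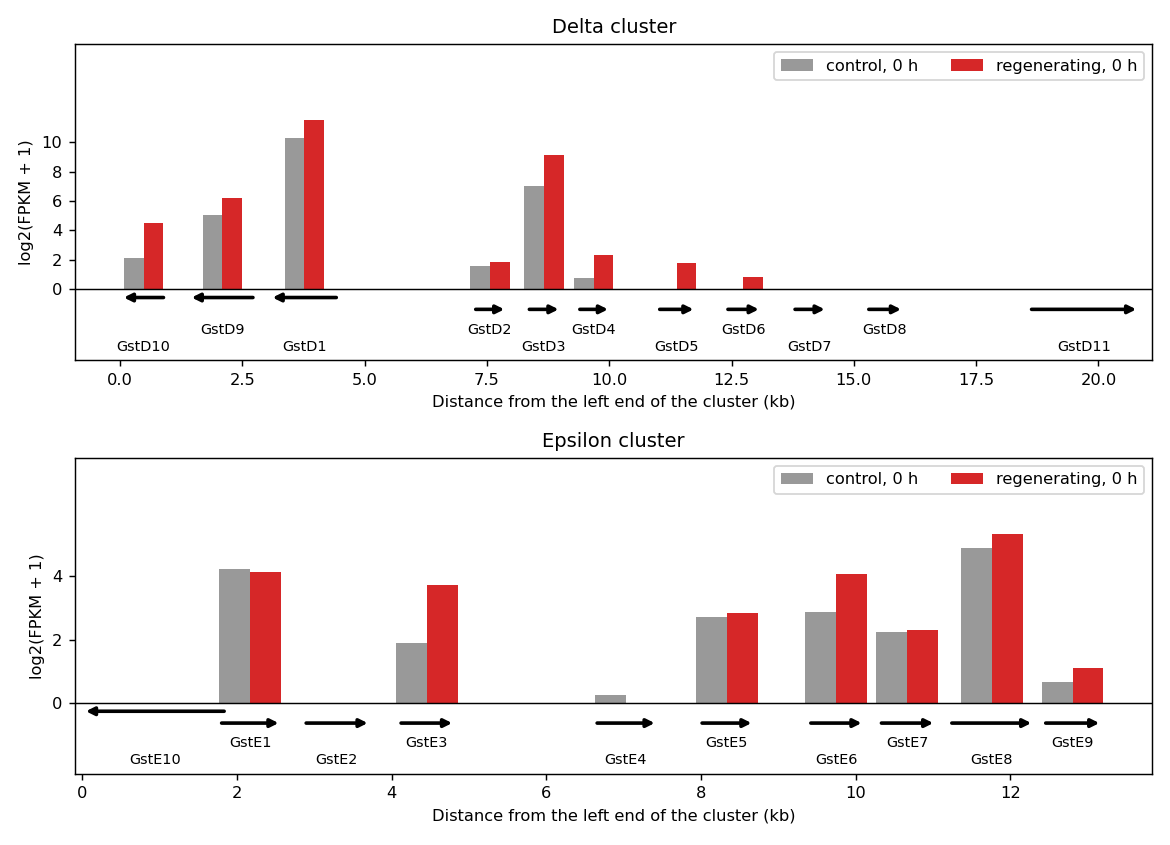
Delta cluster (top) and epsilon cluster (bottom), with arrows for the genes and their strand along the distance in kb from the left end, and bars for log2(FPKM + 1) at 0 h in control (grey) and regenerating (red) discs. GstD1 and GstD3 carry the tallest bars of the delta cluster, with weakly expressed or unlisted genes beside them.

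Some members share bases with other genes, and the sources used here do not give how reads were assigned among similar or overlapping genes. GstT2 shares 223 exonic bases with CG12926 on the other strand and GstO2 shares 61 with se. GstE9 shares 40 with imd, GstE12 33 with CG3894, GstE1 20 with GstE10 and GstE13 6 with CG18659. The highest value of imd was 23.8 FPKM and that of GstE9 1.18 FPKM. The delta and epsilon genes also resemble one another in sequence, so the split between close relatives is uncertain for the weak ones.

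Few of the other genes of glutathione metabolism listed here passed the rule. Of the 4 genes of glutathione synthesis and turnover measured, the glutamate-cysteine ligase subunits Gclc and Gclm among them, 0 were higher and 0 lower at any time. Over all genes measured 7.47%, 5.95% and 9.11% were higher and 3.04%, 2.2% and 3.2% lower at 0 h, 15 h and 25 h. Gclc, the catalytic subunit, stood at 1.97, 4 and 3.63 FPKM in control discs and at 3.65, 5.09 and 4.04 FPKM in regenerating discs. Gclm, the modifier subunit, lay between 37.0 and 51.8 FPKM in all 6 groups. The gene of CncC, cnc, lay within 8.26 to 13.2 FPKM and Keap1 within 2.38 to 6.01 FPKM. With maf-S, the dimer partner of CncC, and ref(2)P, the fly p62 gene, 0 of these 4 genes were higher or lower at any time. Counts of 0 among 4 genes do not set either list apart from all genes.

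Among 7 measured genes of peroxiredoxins, thioredoxin reductase and glutaredoxin, Prx2 and Prx3, which reduce peroxides, were higher at 15 h. The share of all genes measured that were higher at 15 h was 5.95%. At that time Prx2 stood at 149 FPKM without and 341 FPKM with damage and Prx3 at 38.1 and 83.6 FPKM, with log2 ratios of 1.19 and 1.11. At 0 h and 25 h 0 of the 7 were higher or lower. After scaling 0 passed at any time, where 2.34%, 1.64% and 8.46% of all genes were higher.

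Of genes related to GSTs in sequence or name 5 were measured at each time, with 1 higher at 0 h, 1 at 15 h and 2 at 25 h and 0 lower. Over all genes measured 7.47%, 5.95% and 9.11% were higher. After scaling 0, 0 and 1 of these genes were higher, the 1 being se, against 2.34%, 1.64% and 8.46% of all genes. Mgstl, the microsomal GST, stood at 78.2, 70.8 and 98.0 FPKM in control discs and at 109, 175 and 199 FPKM in regenerating discs. As deposited, all regenerating values lay above all control values, an order that scaling did not keep. The log2 ratios were 0.47, 1.29 and 1.02, or -0.07, 0.90 and 0.97 after scaling. The omega-class gene se, which makes a precursor of red eye pigments and whose symbol leaves it outside the family as defined here, stood at 1.30 and 3.58 FPKM at 0 h. Its log2 ratio was 0.99 there. The ratio of 1.71 at 25 h rests on a control value listed at 0. Clic, a chloride channel protein with a GST fold, was higher at 0 h at 46.5 and 107.5 FPKM, with a log2 ratio of 1.19, or 0.66 after scaling.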

How the data were processed

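RNA sequencing of 12 libraries in 6 groups was used as 1 table. The authors deposited FPKM, 1 column per group merged over 2 libraries. Per the submitters' processing notes, the tools were STAR 2.4.0j and RSEM and the build was dm6. Their roles and the way replicates were merged are not given there. Decimal points were lost in 5 of the 6 deposited columns, so whole numbers of at least 1000 ending in 5 were divided by 1000. This reading rests on the values. All 51 restored values of the 154 above 0 in the family then lay within 8 times of the same gene's other values, and 0 did undivided. Symbols were paired with 16912 of 17158 identifiers, and positions were taken from Ensembl's BDGP6 annotation, the assembly of dm6. There were 1 column of values with no sample in the series, which was not used, and no separate replicate columns, so the rule of size replaced a test in 7 comparisons. Scaling factors were medians of ratios over 7542 genes above 0 in every group. The 5 alternatives were pseudocounts of 0.1 and 5, no filter, scaling, and genes above 0 in both groups. Dropping the filter could not change a call by the rule. Named members were the 11 past the rule with both values above 0 in a comparison of regenerating with control discs and the 6 with the highest mean, 15 in all. Further members were named after their values were seen. Gss1 and Gss2, with identical values, were counted once. The family, the 11 gene lists and the rule were chosen with earlier results of these data known. Calculations were tested on simulated data and run in Python 3.11.15 with pandas 2.3.3.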

Additional observations from a re-analysis of the deposited data

Results flagged for a closer look

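GstZ1, the zeta-class gene whose product, maleylacetoacetate isomerase, acts in the breakdown of tyrosine, moved in opposite directions at different times, regenerating over control. Its FPKM without and with damage was 54.5 and 79.0 at 0 h, 78.5 and 49.0 at 15 h and 73.4 and 37.2 at 25 h. The log2 ratios were 0.53, -0.67 and -0.96, all inside the rule of size. After median-of-ratios scaling they were -0.01, -1.05 and -1.01, so the early excess was lost and the gene was lower by the rule at both later times. The difference between the times was not tested, since each group has 1 merged value.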

How the results depend on the processing

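No paired analysis was possible because the deposited table has 1 merged column per group and no replicate columns, and for the same reason no replicate could be left out. Counts of GST genes past the rule are given against those in the report. Scaling by median of ratios gave 5 higher at 0 h, 1 higher and 2 lower at 15 h, and 1 lower at 25 h. Within control discs from 0 h to 15 h it gave 0 higher and 4 lower, and within regenerating discs from 15 h to 25 h 2 higher. The shift it makes to log2 ratios of regenerating over control is 0.54, 0.39 and 0.05. A pseudocount of 5 gave 5 higher at 0 h, 2 at 15 h and 1 at 25 h. It gave 1 lower in control discs from 0 h to 15 h, 0 lower from 15 h to 25 h, 2 lower in regenerating discs from 0 h to 15 h and 0 higher from 15 h to 25 h. A pseudocount of 0.1 gave 1 lower at 15 h and 2 higher in regenerating discs from 15 h to 25 h. Shares of all genes under these pseudocounts were not computed. Whether the calls of the family moved more than those of all genes therefore cannot be said. Genes above 0 in both groups gave 1 higher at 25 h, 0 lower in control discs from 15 h to 25 h and 0 higher in regenerating discs from 15 h to 25 h, since members listed at 0 drop out by construction. With no filter every count was the same, an outcome fixed in advance. A log2 ratio of 1 or more with a pseudocount of 1 already needs 1 FPKM in 1 group. Counts not given here stayed within 1.5 times of those in the report. Among the ratios of the 15 named members none past the rule changed sign under any alternative, 8 lost the call under scaling and 10 under a pseudocount of 5. Apart from members listed at 0, the cause of these shifts was not tested. Depth is unknown, so no limit can be set for values of 0.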

Other observations

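Other detoxification genes fixed as a list went in both directions. Of 14 measured at 0 h 3 were higher and 2 lower, of 13 at 15 h 2 and 2, and of 13 at 25 h 4 and 2. Over all genes measured 7.47%, 5.95% and 9.11% were higher and 3.04%, 2.2% and 3.2% lower. After median-of-ratios scaling 2, 0 and 4 were higher and 2 lower at each time. Over all genes 2.34%, 1.64% and 8.46% were then higher and 5.46%, 4.01% and 3.53% lower. The cytochrome P450 genes Cyp4p1 and Cyp4p2 were the lower ones at all 3 times. Cyp4p2 stood at 54.3, 70.5 and 35.4 FPKM in control discs and at 13.4, 1.98 and 0 FPKM in regenerating discs in order of time. Cyp4p1 stood at 11.9, 5.84 and 3.35 FPKM in control discs and at 2.34 FPKM, 0 and 0 in regenerating discs. Cyp9f2 was higher at 0 h, though at a log2 ratio of 0.64 after scaling, and at 25 h, with all control values between 2.05 and 2.37 FPKM and all regenerating values between 4.93 and 6.62 FPKM. Cyp6a17 stood at 0.61, 1.65 and 1.77 FPKM in control and at 2.13, 4.91 and 8.17 FPKM in regenerating discs. It was higher at 15 h, at 0.86 after scaling and so inside the rule, and at 25 h under both. Cyp6g2, higher at 0 h and 25 h, reached 3.28 FPKM, Cyp6a20 was higher at 0 h with values of 0 and 1.5 FPKM, and Cyp4e2 was higher at 15 h at 6.49 and 15.5 FPKM, with a scaled log2 ratio of 0.78 inside the rule. Jheh3, a juvenile hormone epoxide hydrolase gene, was higher at 25 h, at 2.95 FPKM with the control listed at 0.

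Genes of ecdysteroid synthesis, the pathway in which GstE14 acts, were weak in these discs, with 6 matched genes summing to between 7.54 and 16.6 FPKM per group. At 0 h 1 of 4 genes measured, spo, was lower, against 3.04% of all genes measured. It had 1.01 FPKM in the control, just above the limit of 1 FPKM, and a listing of 0 after damage. At 25 h 1 of 3 measured, sad, was higher, against 9.11% of all genes measured. It had a control value of 0, in the group that lists weak genes at 0 most often, and a regenerating value of 3.15 FPKM. Adult muscle precursor markers summed to between 27.6 and 51.9 FPKM per group. Of 5 measured at 25 h 2, twi and Him, were higher, also after scaling. Of all genes measured 9.11% were higher as deposited and 8.46% after scaling. The others, htl, zfh1 and Mef2, had log2 ratios of -0.17, 0.02 and 0.26 there. Tracheal markers trh and bnl summed to between 6.30 and 10.1 FPKM.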
